A study of Mus musculus with 8 samples.

Results

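Gas5 and 6 further non-coding genes that host small nucleolar RNAs (snoRNAs), namely Snhg1, Snhg3, Snhg5, Snhg6, Snhg8 and Snhg12, were followed in 8 RNA-seq libraries of mouse CD8 T cells. These 7 genes were taken by symbol from the 49315 genes listed in each library. Gas5 was chosen by its measured level, since its higher counts after Carm1 editing had already been seen in these same libraries. Differences of the 7 genes between the groups are therefore given as descriptions with no p, and where their calls in the fit over all genes are counted, nothing is read from them.

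The 4 Carm1 KO libraries came from OT-I CD8 T cells nucleofected with Cas9 and a guide RNA against Carm1. This gene's product methylates arginines of histones and other proteins and coactivates transcription. The 4 Control KO libraries were made from such cells nucleofected with a guide against LacZ, a bacterial gene that mouse cells lack, and the labels also call them WT. Both groups were CD45.1 cells that carry the OT-I transgenic T cell receptor, which recognises an ovalbumin peptide. Naive CD8 T cells were enriched from spleen and inguinal lymph nodes by removal of other cells, grown with 2.5 ng/ml IL-7 and 50 ng/ml IL-15, and lysed 7 days after editing. The sample protocols describe culture in cytokines, whereas in the series text T cells of both groups were kept together with B16F10-Ova melanoma cells, so the presence of tumour cells was checked through marker genes. The labels call the 4 libraries of a group technical replicates. The sources used here give no number of mice or cultures and no age, so the spread and every p measure variation between these libraries, which may be technical.

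Libraries held 37556330 to 39988442 counts in Carm1 KO and 38768760 to 41439998 counts in Control KO. Carm1 itself measured 32.1 to 33.2 CPM (a count relative to the size of its library) in the Carm1 KO libraries, against 94.4 to 96.9 CPM in the Control KO libraries, so the groups did not overlap. Here and below, CPM are scaled by TMM, a normalisation that aligns the bulk of genes between libraries, and a log2 fold change is Carm1 KO over Control KO. By edgeR's quasi-likelihood test with Benjamini-Hochberg adjustment at 0.05, 6667 of 14970 genes tested were higher in Carm1 KO and 6468 were lower, so that most of the transcriptome passed. With library totals alone the calls were 7651 higher and 5457 lower, and with upper-quartile factors 8004 higher and 5121 lower, which moved the median of all genes by 0.16 and 0.21 on the log2 scale. The position of every gene below is therefore relative to the scaling used.

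Small nucleolar RNAs guide chemical changes on ribosomal and spliceosomal RNA. C/D box snoRNAs direct 2′-O-methylation and H/ACA box snoRNAs direct pseudouridylation. In mammals most are cut out of introns, and genes such as Gas5 and the Snhg family are known mainly as carriers: their spliced exons form a long non-coding RNA with little coding capacity, while the introns give the snoRNAs. Several of these spliced RNAs, Gas5 above all, begin with a pyrimidine run like that of ribosomal protein messages and are known to be degraded by nonsense-mediated decay when they are translated. Gas5 was named for its accumulation in growth-arrested cells, and in human cells its RNA was described as a decoy for the glucocorticoid receptor.

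By GENCODE M21, on the mm10 build (GRCm38), Gas5 lies at chr1:161034422-161038539 on the plus strand, with 25 annotated transcripts and 10 annotated snoRNA genes within its span. Those 10 entries include 2 overlapping annotations of Snord80 and 1 entry that is named as a microRNA, Mir5117. Snhg1 lies at chr19:8723475-8726443 on the plus strand with 8 nested snoRNA genes. Snhg12 lies at chr4:132308623-132311024 on the plus strand with 5, and Snhg3 at chr4:132348014-132353686 on the minus strand with 2. Snhg5 lies at chr9:88521050-88522929 on the minus strand and also holds 2. Snhg6, at chr1:9941959-9944118 on the minus strand, and Snhg8, at chr3:123507552-123508404 on the minus strand, hold 1 each. By the box motifs searched near their ends, 8 of the 10 entries in Gas5 were of the C/D kind and 2 could not be assigned. Snhg1 held 5 C/D genes and 3 unassigned, whereas both snoRNA genes in Snhg3 and the single gene in Snhg8 were of the H/ACA kind.

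The snoRNA sequences below show what the introns carry: Snord47 as an example from Gas5, and the 3 nested snoRNA genes that received any counts. Capitals mark boxes C (TGATGA) and D (CTGA) in the C/D kind, and the ACA box near the end in the H/ACA kind. They are GENCODE M21 transcripts, written 5′ to 3′ as DNA. Snord47 lies in Gas5 at chr1:161038082-161038158 (plus strand), Snord87 in Snhg6 at chr1:9942463-9942549 (minus strand), Snora16a in Snhg12 at chr4:132309464-132309600 (plus strand) and Snora73a in Snhg3 at chr4:132352775-132352979 (minus strand).
Snord47: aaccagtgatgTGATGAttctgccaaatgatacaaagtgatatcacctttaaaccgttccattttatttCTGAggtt
Snord87: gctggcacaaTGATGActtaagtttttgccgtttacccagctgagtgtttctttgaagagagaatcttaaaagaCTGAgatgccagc
Snora16a: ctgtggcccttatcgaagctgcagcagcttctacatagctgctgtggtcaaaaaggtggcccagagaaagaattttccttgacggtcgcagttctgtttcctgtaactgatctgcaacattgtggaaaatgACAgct
Snora73a: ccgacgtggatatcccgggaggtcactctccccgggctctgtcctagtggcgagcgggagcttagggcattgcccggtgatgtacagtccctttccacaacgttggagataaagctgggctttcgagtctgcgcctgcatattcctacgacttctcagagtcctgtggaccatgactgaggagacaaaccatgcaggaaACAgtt

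The start sites below were searched for a pyrimidine run like that of ribosomal protein messages. Each line is 100 bases around a start annotated by RefSeq on GRCm38.p6, 50 on each side, on the gene's strand. Capitals mark a C followed by at least 4 bases that are all C or T, beginning within 10 bases of the start. Gas5 has 2 annotated starts, at chr1:161034551-161034650 and, downstream, at chr1:161035116-161035215, both on the plus strand. The other windows are chr19:8723437-8723536 (Snhg1, plus), chr4:132308628-132308727 (Snhg12, plus), chr4:132353637-132353736 (Snhg3, minus), chr9:88522848-88522947 (Snhg5, minus) and chr3:123508287-123508386 (Snhg8, minus).
Gas5, upstream start: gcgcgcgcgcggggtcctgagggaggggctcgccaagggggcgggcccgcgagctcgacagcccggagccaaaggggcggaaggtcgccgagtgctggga
Gas5, downstream start: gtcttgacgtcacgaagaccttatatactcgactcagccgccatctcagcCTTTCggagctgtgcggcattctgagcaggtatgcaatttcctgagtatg
Snhg1: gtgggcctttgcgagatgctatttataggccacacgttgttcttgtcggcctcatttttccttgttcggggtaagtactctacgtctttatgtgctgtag
Snhg12: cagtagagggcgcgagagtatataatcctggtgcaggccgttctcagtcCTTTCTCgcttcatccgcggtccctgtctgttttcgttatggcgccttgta
Snhg3: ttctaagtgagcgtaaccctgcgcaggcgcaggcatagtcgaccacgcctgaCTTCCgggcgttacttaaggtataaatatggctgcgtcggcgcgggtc
Snhg5: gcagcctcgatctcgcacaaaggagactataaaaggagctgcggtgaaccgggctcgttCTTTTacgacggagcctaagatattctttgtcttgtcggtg
Snhg8: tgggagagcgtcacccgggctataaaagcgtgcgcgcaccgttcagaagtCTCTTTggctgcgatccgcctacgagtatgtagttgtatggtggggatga

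Such a run was present at a start of 5 of the 6 hosts with a window, and Snhg1 had none. It began at the annotated start itself at the downstream start of Gas5 and in Snhg8. It began 1 base before the start in Snhg12, 2 bases after it in Snhg3 and 9 bases after it in Snhg5. The upstream start of Gas5 held no run. Counted by window, 5 of the 7 host windows held a run. Over all 32851 promoter windows 30.7% held one, and 54.4% of 68 windows of ribosomal protein genes did. A match near an annotated start therefore does not show that the RNA begins with such a run. The letters TATAAA were searched on both strands from 250 bases before to 50 after the start. They were present in 4 of the 6 hosts (Snhg1, Snhg3, Snhg5 and Snhg8). By window that is 4 of 7, against 13.6% of all windows. In the printed bases they lie before the start on the gene's strand in Snhg5 and Snhg8. In Snhg3 they lie after the start, and in Snhg1 only the reverse form TTTATA is printed. Neither CACGTG nor TCGCGA, each the same on both strands, was in any of the 7 windows, against 7.15% and 2.50% of all windows. A missing match says only that these letters are not in the window.

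Gas5 was the most abundant of the 7 and the one with the largest difference between the groups. It measured 692, 670, 641 and 692 CPM in the Carm1 KO libraries, against 216, 217, 216 and 215 CPM in the Control KO libraries. The lowest Carm1 KO library stood 423 CPM above the highest Control KO library. The means were 674 ± 24.2 CPM in Carm1 KO and 216 ± 0.960 CPM in Control KO (SD, n = 4 libraries each), a log2 fold change of 1.64 ± 0.02 (SE), or 3.12-fold. Before scaling, Gas5 held 25637 to 28933 counts per library in Carm1 KO and 7880 to 8527 in Control KO. Counting alone gives a coefficient of variation of 0.603% at the Carm1 KO depth and 1.11% at the Control KO depth, whereas the measured values were 3.60% and 0.444%. The spread between Carm1 KO libraries was thus wider than counting error, and that between Control KO libraries was not.

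Snhg1, host of several C/D snoRNAs, measured 159, 146, 144 and 149 CPM in the Carm1 KO libraries, against 92.4, 94.9, 94.0 and 92.2 CPM in the Control KO libraries. Its log2 fold change was 0.68 ± 0.03 (SE), or 1.60-fold, with no overlap between the groups. Snhg6, host of Snord87, measured 65.9, 62.3, 62.4 and 63.3 CPM in Carm1 KO and 35.6, 37.2, 36.5 and 36.5 CPM in Control KO. The log2 fold change of Snhg6 was 0.80 ± 0.03, or 1.74-fold, and again every Carm1 KO library was above every Control KO library.

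Snhg5, host of a pair of C/D snoRNAs, measured 57.2, 54.8, 54.5 and 60.0 CPM in the Carm1 KO libraries and 34.0, 31.8, 33.7 and 32.3 CPM in the Control KO libraries, a log2 fold change of 0.78 ± 0.03 or 1.72-fold. Snhg12, which mostly carries H/ACA snoRNAs, measured 56.3, 52.6, 51.2 and 53.5 CPM in Carm1 KO and 34.2, 35.0, 34.1 and 33.5 CPM in Control KO, a log2 fold change of 0.64 ± 0.03 or 1.56-fold. In neither gene did the groups overlap, and the differences of Snhg1, Snhg5, Snhg6 and Snhg12 were of like size, 1.56- to 1.74-fold.

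Snhg8, host of a single H/ACA snoRNA, had the smallest difference. It measured 49.7, 46.6, 43.5 and 48.8 CPM in the Carm1 KO libraries, against 37.2, 38.3, 38.5 and 39.7 CPM in the Control KO libraries. The lowest Carm1 KO library was 3.81 CPM above the highest Control KO library, and the log2 fold change was 0.30 ± 0.04, or 1.23-fold.

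Snhg3 was the exception in direction and by far the least abundant. It measured 4.14, 3.44, 3.17 and 3.06 CPM in the Carm1 KO libraries, against 6.11, 4.68, 5.35 and 5.21 CPM in the Control KO libraries. All Carm1 KO libraries were below all Control KO libraries, with a log2 fold change of -0.63 ± 0.09, or 1.55-fold lower. The value of Snhg3 is uncertain, because 83.3% of its exon bases are shared with other genes. Of these, 705 bases are shared with the predicted gene Gm17300 on the opposite strand and 135 with Rcc1, which encodes the nucleotide exchange factor of the GTPase Ran, on the same strand. The library kit does not mark strand, so the reads of Snhg3 and Gm17300 cannot be told apart, and both overlapping genes were lower in Carm1 KO, Rcc1 at 23.2 ± 0.925 CPM against 95.3 ± 3.45 CPM.

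**Figure D1:**
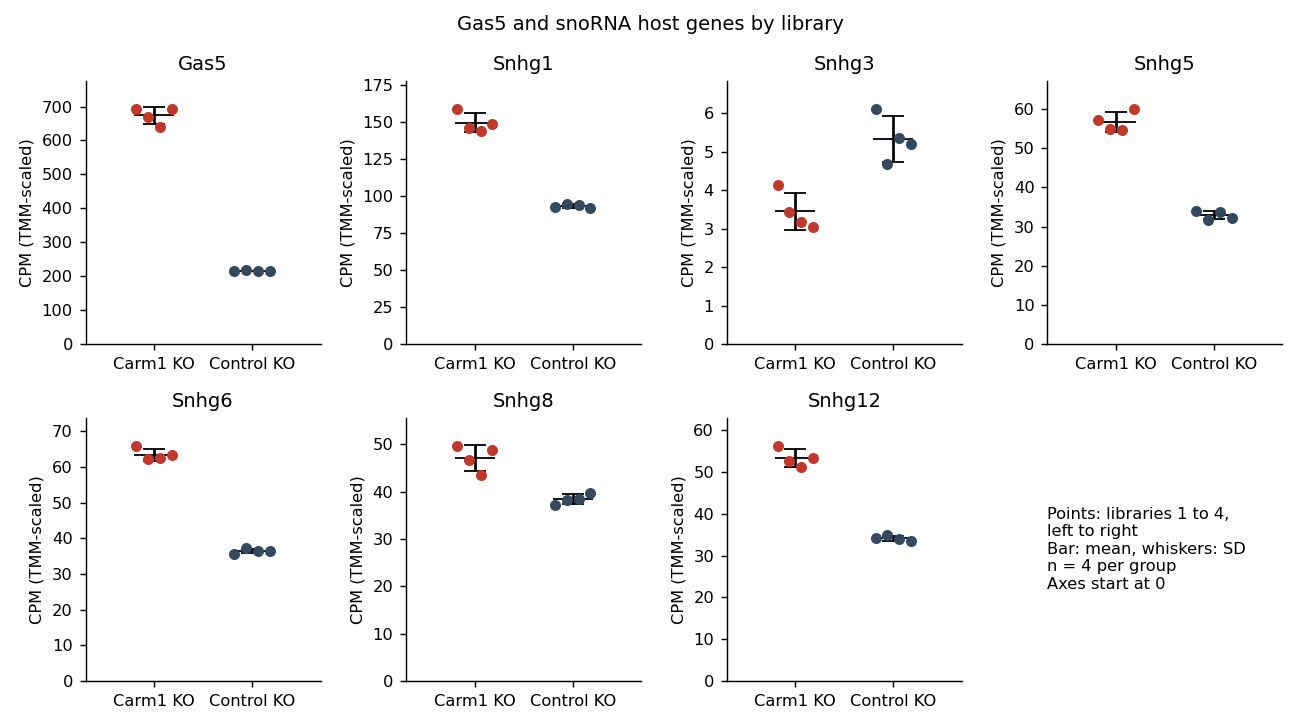
TMM-scaled CPM (vertical axes, each from 0) of the 7 host genes in the 4 Carm1 KO libraries, at the left of each panel, and the 4 Control KO libraries, at the right; points are libraries and the bars are means with SD. Gas5 sits at 641 to 692 CPM in Carm1 KO and at 215 to 217 CPM in Control KO, and Snhg3 is the panel in which Carm1 KO is the lower group.

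By the edgeR quasi-likelihood call, 6 of the 7 hosts were higher in Carm1 KO, where 44.5% of all genes tested were, and 1 was lower, where 43.2% of all genes were. All 7 thus passed in one direction or the other, where 87.7% of all genes did. All 7 also had Carm1 KO libraries wholly apart from Control KO libraries, 6 above and 1 below, where 42.2% of all genes were wholly above, 41.2% wholly below and 83.4% either. Since the genes were chosen with this contrast in view, these counts are no evidence about them. The median log2 fold change was 0.68 over the 7 hosts and 0.02 over all genes tested. Of all genes tested, 11.7% had a larger log2 fold change than Gas5, 24.7% a larger one than Snhg6 and 39.2% a larger one than Snhg8. Directions held under all scalings tried: with TMM, RLE or upper-quartile factors or library totals, the log2 fold change ran over 1.63 to 1.86 for Gas5, 0.28 to 0.51 for Snhg8 and -0.64 to -0.41 for Snhg3.

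The 7 hosts together summed to 1047 ± 37.4 CPM in Carm1 KO and 457 ± 2.17 CPM in Control KO (SD, n = 4). Without Gas5 the sum was 374 ± 14.3 CPM in Carm1 KO and 241 ± 1.49 CPM in Control KO. Gas5 made up 64.3% ± 0.425 of the summed CPM in Carm1 KO and 47.3% ± 0.131 in Control KO, so its share was larger in Carm1 KO. The ratio of Gas5 to Snhg1, which does not depend on how libraries are scaled, was 4.36, 4.58, 4.44 and 4.65 in the Carm1 KO libraries, against 2.34, 2.29, 2.30 and 2.33 in the Control KO libraries, with no overlap.

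To compare levels between genes, CPM were divided by the exon length given in the files, in CPM per kb. In Carm1 KO the order was Gas5 at 179 ± 6.45, Snhg6 at 55.4 ± 1.47, Snhg8 at 55.3 ± 3.24, Snhg1 at 50.3 ± 2.16, Snhg12 at 32.9 ± 1.31, Snhg5 at 32.7 ± 1.46 and Snhg3 at 3.50 ± 0.491 CPM per kb. Of these neighbours, Snhg6 and Snhg8, Snhg8 and Snhg1, and Snhg12 and Snhg5 overlapped between libraries, and the others did not. In Control KO the order was Gas5 at 57.5 ± 0.255, Snhg8 at 45.0 ± 1.18, Snhg6 at 31.8 ± 0.553, Snhg1 at 31.4 ± 0.437, Snhg12 at 21.03 ± 0.393, Snhg5 at 19.0 ± 0.616 and Snhg3 at 5.41 ± 0.598 CPM per kb. There only Snhg6 and Snhg1 overlapped. Snhg8 was thus below Gas5 alone in Control KO, and Gas5 stood further from the rest in Carm1 KO than in Control KO. These lengths sum all annotated exons, including retained introns: exons cover 91.3% of the Gas5 span and 100.0% of the Snhg1 and Snhg8 spans, so per-length levels of the spliced RNAs are understated where such forms are not used.

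**Figure D2:**
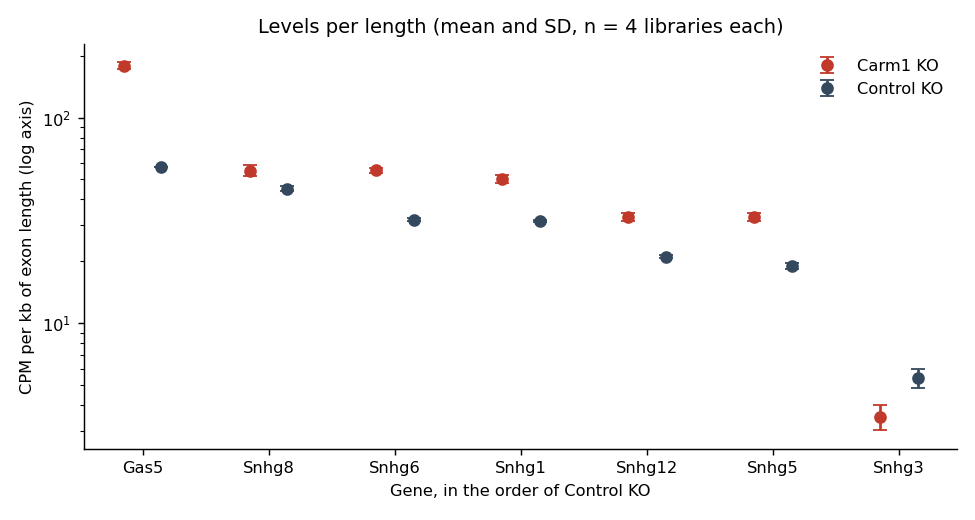
Mean level of each host gene in TMM-scaled CPM per kb of exon (vertical axis, log scale), with Carm1 KO left of Control KO for each gene and genes in their order in Control KO; points are means of 4 libraries and bars are the SD. Gas5 stands at 179 CPM per kb in Carm1 KO and 57.5 in Control KO, and Snhg3 is the lowest gene in both groups.

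The host genes carry 29 annotated snoRNA genes, and 26 of them were listed at 0 in every library. Of these 26, 24 lie wholly inside annotated exons of their host, where reads of the snoRNA and of the host cannot be told apart. Poly(A) libraries are also not made to capture RNAs this short, so the zeros do not measure snoRNA levels. Counts were given to Snora73a in Snhg3, Snord87 in Snhg6 and Snora16a in Snhg12, whose sequences are shown above. Snord87 and Snora16a lie wholly outside the annotated exons of their hosts, and an overlapping second annotation of Snora16a was listed at 0.

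Snord87 had 7, 14, 9 and 7 counts in the Carm1 KO libraries, against 20, 27, 21 and 17 in the Control KO libraries. Snora16a had 13, 14, 5 and 9 counts in Carm1 KO, against 38, 36, 30 and 35 in Control KO. Neither overlapped between the groups, and both were lower in Carm1 KO although their hosts Snhg6 and Snhg12 were higher there. Set against the host, Snord87 had 3.58 ± 1.30 counts per 1000 counts of Snhg6 in Carm1 KO and 15.6 ± 3.03 in Control KO (SD, n = 4). Snora16a had 4.64 ± 1.72 counts per 1000 counts of Snhg12 in Carm1 KO and 27.1 ± 2.18 in Control KO. Snora73a, with 9, 3, 4 and 2 counts in Carm1 KO and 7, 10, 19 and 8 in Control KO, overlapped. Of the bases of Snora73a, 77.6% lie inside annotated exons of Snhg3. All of these counts are small, and whether they come from unspliced host RNA or from the snoRNA was not tested.

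**Figure D3:**
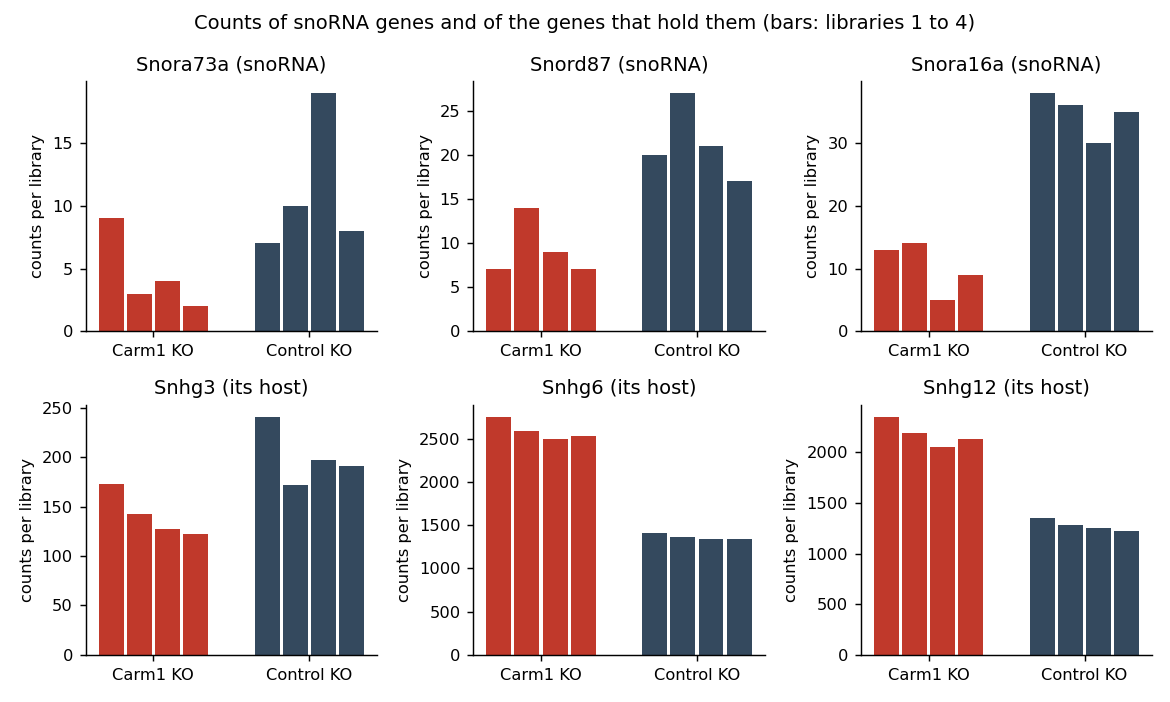
Counts per library (vertical axes, from 0) of the 3 nested snoRNA genes that received counts (upper row) and of their hosts (lower row), with Carm1 KO left of Control KO; each bar is a library. Snora16a has 5 to 14 counts in Carm1 KO and 30 to 38 in Control KO, the opposite order to its host Snhg12, and Snora73a overlaps between the groups.

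The genes that overlap the hosts or are the nearest coding gene on either side did not share their direction. Of 17 such genes 14 were tested, of which 6 were higher in Carm1 KO, 7 were lower and 1 did not pass. Of all genes tested 44.5% were higher and 43.2% lower. The median log2 fold change of the 14 was -0.24. Zbtb37, a zinc finger gene whose span overlaps Gas5 on the opposite strand without shared exon bases, measured 15.6 ± 1.07 CPM in Carm1 KO and 13.1 ± 0.612 CPM in Control KO. It passed as higher, with a log2 fold change of 0.25 (edgeR adjusted p = 3.7e-05), against 1.64 for Gas5. Serpinc1, the antithrombin gene and the nearest coding gene on one side of Gas5, was at 1.60 ± 0.158 CPM in Carm1 KO and 0.128 ± 0.070 CPM in Control KO.

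Slc3a2, a subunit of amino acid transporters, lies 106 bases from Snhg1 on the opposite strand and was lower in Carm1 KO, at 78.9 ± 2.21 CPM against 179.9 ± 4.44 CPM (log2 fold change -1.19, edgeR adjusted p = 1.9e-34). Trnau1ap, 739 bases from Snhg12 on the opposite strand, was at 38.5 ± 2.15 CPM in Carm1 KO and 61.9 ± 0.907 CPM in Control KO, a log2 fold change of -0.69. Both neighbours were thus lower where the host gene beside them was higher. Trnau1ap is also the nearest coding gene on one side of Snhg3, which was lower as well. On the other side of Snhg12, Rab42 passed as higher from few counts, at 0.417 ± 0.080 CPM in Carm1 KO against 0.040 ± 0.016 CPM. Prss12, 955 bases from Snhg8, measured 1.20 ± 0.200 CPM in Carm1 KO and 1.04 ± 0.099 CPM in Control KO and did not pass (edgeR adjusted p = 0.25). Around Snhg5, Zfp949 was 3.33-fold higher and Syncrip, an RNA-binding protein gene, 2.50-fold lower.

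**Figure D4:**
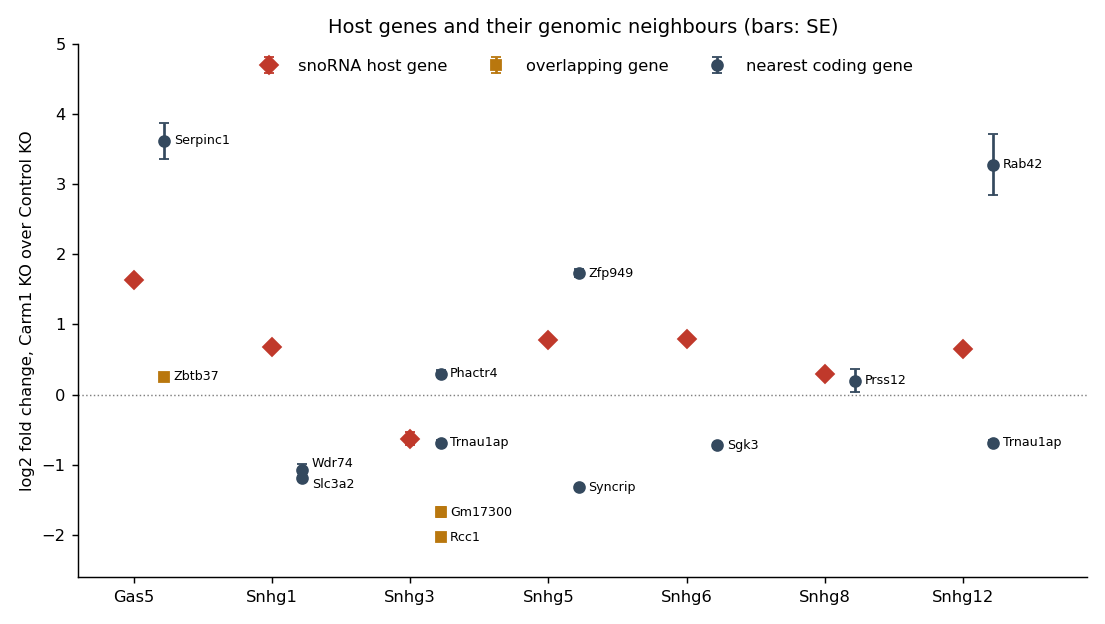
Log2 fold change of Carm1 KO over Control KO (vertical axis, bars are SE) of each host gene (diamonds), of genes that overlap it (squares) and of nearest coding genes that were tested and are reported here (circles). Neighbours lie on both sides of 0, such as Slc3a2 at -1.19 beside Snhg1 at 0.68.

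Among 14 further non-coding snoRNA hosts chosen for comparison, 10 were found by symbol and 8 were tested. Of these 8, 4 (50%) passed as higher in Carm1 KO, where 44.5% of all genes tested did. Another 3 (37.5%) passed as lower, where 43.2% of all genes did, and 1 did not pass. These shares lie near those of all genes, so nothing is read from them. The median log2 fold change was 0.64. Zfas1, host of C/D snoRNAs, measured 336 ± 24.1 CPM in Carm1 KO and 74.5 ± 1.72 CPM in Control KO, or 4.51-fold higher (edgeR adjusted p = 3.1e-11), a larger difference than that of Gas5. Epb41l4aos was 3.11-fold higher, at 53.0 ± 4.53 CPM against 17.1 ± 0.516 CPM, close to the fold of Gas5. Snhg17 and Snhg15 went the other way, at 23.1 ± 0.849 CPM in Carm1 KO against 38.5 ± 1.16 CPM and at 17.4 ± 1.01 CPM against 26.9 ± 1.40 CPM. The remaining genes, named after their values were seen, were Snhg20 (2.10-fold higher), Snhg14 (higher), Dancr (lower) and Snhg9, which was at 0.471 CPM against 0.407 CPM and did not pass; the last 3 were below 3 CPM in both groups.

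Coding hosts were taken by annotation alone, as coding genes with a snoRNA gene (or scaRNA, a related class) within their span on the same strand. Whether those snoRNAs are made in these cells was not tested. Coding hosts were mixed in direction. Of 219 tested, 73 (33.3%) were higher in Carm1 KO, where 44.5% of all genes tested were. Another 127 (58.0%) were lower, where 43.2% of all genes were, and 19 did not pass. The median log2 fold change was -0.23. With upper-quartile factors 97 were higher and 102 lower, and with library totals 90 and 106, so this split depends on the scaling. By the TMM-scaled fit, 6 of the 219 (2.74%) had a larger log2 fold change than Gas5. Among those with at least 5 CPM, the largest rise was in Eif2ak3, a kinase of the unfolded protein response, at 112 ± 2.47 CPM in Carm1 KO against 31.2 ± 1.10 CPM, and the largest fall in Frmd4b, at 3.49 ± 0.234 CPM against 41.3 ± 0.948 CPM. Ranbp1, a regulator of the GTPase Ran, was 7.07-fold lower in Carm1 KO. Long non-coding genes as a class ran higher: of 1188 tested, 66.3% passed as higher and 14.9% as lower, with a median of 0.89. Among the 194 with at least 5 CPM, 138 were higher, 41 lower, the median was 0.74, and 22.2% had a larger log2 fold change than Gas5.

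The RNAs that encode snoRNA-packaging proteins were mostly lower in Carm1 KO. Of 20 genes for snoRNP proteins and assembly factors, 19 were lower in Carm1 KO, where 43.2% of all genes tested were. Only 1 was higher, where 44.5% of all genes were, and the median log2 fold change was -1.83. This list was chosen with earlier results of these data known. The C/D core proteins were all lower: fibrillarin (Fbl), the methyltransferase, at 109 ± 4.35 CPM in Carm1 KO against 486 ± 12.2 CPM, and Nop56 at 69.2 ± 1.26 CPM against 365 ± 2.44 CPM. Nop58 was 5.06-fold and Snu13 3.11-fold lower. Of the H/ACA core, dyskerin (Dkc1), the pseudouridine synthase, was at 52.8 ± 0.763 CPM against 259 ± 4.14 CPM, and Gar1 was 4.62-fold, Nhp2 3.67-fold and Nop10 2.78-fold lower. Nolc1, a nucleolar chaperone of both kinds, had the largest fall, 5.67-fold (log2 fold change -2.50, edgeR adjusted p = 1.7e-46). The single gene that rose was Phax, an adaptor for export of small nuclear RNAs and transport of snoRNAs, by 0.43 ± 0.03 (SE) on the log2 scale. These counts of 19 and 1 were the same under every alternative tried for the whole set of libraries.

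Genes known to act on RNAs with pyrimidine-run starts, or to share such starts, were mixed. Of 79 cytosolic ribosomal protein genes, 47 (59.5%) were higher in Carm1 KO, where 44.5% of all genes tested were. Another 22 (27.8%) were lower, where 43.2% of all genes were. The other 10 did not pass, and the median log2 fold change was 0.18. Fau rose 1.75-fold, to 2144 ± 117 CPM in Carm1 KO against 1228 ± 37.5 CPM, whereas Rps25 fell to 714 ± 34.0 CPM in Carm1 KO against 1278 ± 20.1 CPM. With upper-quartile factors 61 were higher and 12 lower, so this split depends on the scaling. Of 15 other translation genes with pyrimidine-run starts, 6 (40%) were higher and 9 (60%) lower, beside those same shares of all genes. Among the 15, Eef2, the translocation factor of elongation, was 1.55-fold higher and Eef1g 2.60-fold lower. With upper-quartile factors those counts were 9 and 4. The median log2 fold change of both lists lay below the 0.68 of the 7 hosts. Those hosts were chosen with this contrast in view, so nothing is read from that gap. Long non-coding genes with at least 5 CPM had a median of 0.74.

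Of 18 genes of the mTOR pathway and Larp1, which controls messages with such starts, 5 (27.8%) were higher and 10 (55.6%) lower. The other 3 did not pass. Over all genes tested 44.5% were higher and 43.2% lower. With upper-quartile factors 10 of the 18 were higher and 6 lower. Larp1 measured 246 ± 4.83 CPM in Carm1 KO and 568 ± 7.60 CPM in Control KO, or 2.31-fold lower, and the cap-binding protein gene Eif4e was 2.87-fold lower. Sesn1, an inhibitor of mTOR signalling, was 2.44-fold higher. Of 19 genes for nonsense-mediated decay, the pathway known to degrade Gas5 RNA, 5 (26.3%) were higher and 13 (68.4%) lower. The shares over all genes tested were again 44.5% higher and 43.2% lower. In this list 1 gene did not pass, and the median log2 fold change was -0.51. Gspt1, a translation release factor, was at 113 ± 2.51 CPM in Carm1 KO against 326 ± 1.45 CPM, and Magoh, of the exon junction complex, at 33.6 ± 1.26 CPM against 91.5 ± 1.37 CPM. In the other direction Upf3b rose 1.93-fold and the kinase gene Smg1 1.38-fold.

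The glucocorticoid receptor and genes known as its targets were described because of the decoy role given to human Gas5. Of 9 tested, 6 (66.7%) were higher in Carm1 KO and 3 (33.3%) were lower, with a median log2 fold change of 0.43. Over all genes tested 44.5% were higher and 43.2% lower. The receptor gene Nr3c1 measured 96.4 ± 1.81 CPM in Carm1 KO and 71.3 ± 1.21 CPM in Control KO. Among the targets, Bcl6, a transcriptional repressor, was 24.6-fold higher, at 43.8 ± 1.19 CPM against 1.78 ± 0.165 CPM, and Il7r, the IL-7 receptor chain, was 3.32-fold higher. Dusp1, a phosphatase of MAP kinases, and Sgk1, a kinase, were lower, at 6.42 ± 0.724 CPM against 19.1 ± 1.18 CPM and at 5.98 ± 0.408 CPM against 14.5 ± 0.834 CPM. Genes of this one list thus moved both ways.

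**Figure D5:**
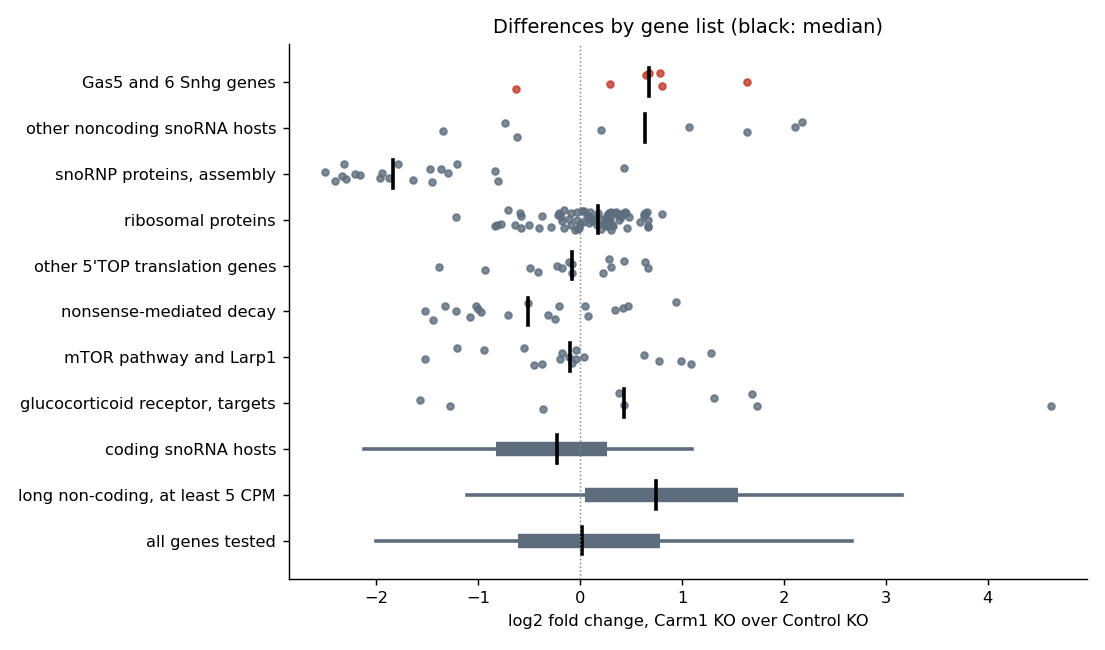
Log2 fold change of Carm1 KO over Control KO (horizontal axis) by gene list; each point is a gene, black marks are medians, and for the 3 lowest rows thick bars span the interquartile range and thin bars all but the extreme 5% at each end. The medians are 0.68 for the 7 hosts, -1.83 for snoRNP proteins and 0.18 for ribosomal proteins.

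The genes most like Gas5 across the 8 libraries were found from log2 CPM centred on each gene's own mean, by the root mean square difference from Gas5. They were Amz2 (0.0304), Rnf138 (0.0318), Serinc3 (0.0332), Cd160 (0.0339) and Polr3gl (0.0385), all coding genes. Their log2 fold changes were 1.59 to 1.69, beside 1.64 for Gas5. With 2 groups this likeness is mostly likeness in the difference between the groups. The other hosts were far down the same ranking, with Snhg6 nearest at position 2456 and Snhg3 last at position 11150.

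Markers of other cells moved with the groups and therefore stand beside every result above. Summed CPM on library totals of 14 T cell identity genes was 12260 to 12508 in Carm1 KO and 7619 to 7669 in Control KO. By the TMM-scaled fit 11 of the 14 were higher in Carm1 KO and 3 lower. Over all genes tested 44.5% were higher and 43.2% lower. With library totals alone, 12 of the 14 were called higher and 1 lower. All 12 myeloid markers were lower by the TMM-scaled fit, where 43.2% of all genes tested were. Their sums were 90.5 to 97.0 CPM in Carm1 KO and 305 to 309 CPM in Control KO. Lyz2, lysozyme of macrophages and granulocytes, was at 0.156 CPM against 78.6 CPM. B cell markers summed to 1000 to 1021 CPM in Carm1 KO and 268 to 272 CPM in Control KO, nearly all of it Ighm. Cd79b was higher, at 18.1 CPM against 5.398 CPM, Igkc was lower, at 0.323 CPM against 16.5 CPM, and Ms4a1 and Pax5 were each at 0.088 CPM or lower in both groups. Of 9 melanoma markers, Tyr, Tyrp1, Dct, Sox10, Gpr143 and Slc45a2 had no count in any library. Mlana had 0 counts in Carm1 KO and 1 in Control KO. The sums of 14.7 to 15.9 CPM in Carm1 KO and 3.80 to 4.10 CPM in Control KO came mainly from Pmel. Pmel was at 13.4 CPM against 3.24 CPM, and Mitf, at 2.02 CPM against 0.745 CPM, gave nearly all the rest. Erythroid markers summed to at most 0.474 CPM in Carm1 KO and 5.30 CPM in Control KO. The part of other cells in the differences of Gas5 and the other hosts was not tested, and in bulk RNA fewer cells of a type and less RNA per cell cannot be told apart.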

How the data were processed

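Each deposited file lists whole-number counts for Ensembl genes, beside exons and lengths. Per the labels' protocols the authors quantified genes with RSEM, and per the submitters' processing notes the build was mm10, although the column layout is that of another kind of program. Aligner, strand setting and versions: not given in the sources used here. RNA had an integrity number above the labels' limit, and the TruSeq poly(A) kit does not mark strand. Reads shared by overlapping genes may have been dropped or split.

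Symbols and positions came from GENCODE M21. Counts of all genes kept by filterByExpr (14970) were fitted in edgeR 4.0.16 (R 4.3.3) with TMM factors and robust quasi-likelihood F tests, two-sided, with Benjamini-Hochberg adjustment. The SE of a log2 fold change is from this fit. The step was tested on simulated counts with known changes in a small part of the genes. That run does not test the scaling where most genes differ, as they did here. Within groups a chi-square over genes gave 1.45 to 13.5 per degree of freedom, so no library was a copy of another, and between groups 418 to 447. Replicate numbers did not pair the libraries. Depth limits single genes at 3 counts, or 0.072 to 0.080 CPM, and such limits cover counting error only.

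The host genes and all lists were chosen with earlier results of these data known. Named genes were all hosts, the 2 largest changes per list and direction among called genes with at least 5 CPM, and all neighbours. Fbl, Nop58, Snu13, Dkc1, Gar1, Nhp2, Nop10 and Nr3c1 were named beyond that rule for their roles, after their values were seen. A few genes that the rule names are not reported here. Alternatives were RLE and upper-quartile factors, library totals alone, other filters, DESeq2 1.42.0, limma-voom (limma 3.58.1), a replicate block and each library left out.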

Additional observations from a re-analysis of the deposited data

Results flagged for a closer look

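None of the 7 host genes had an outlying library. Over 116 groups of 4 libraries, 4 held a library far from the other 3, where chance gives about 1 in 20 groups, and all 4 were in Control KO. Snhg17 had a lowest library at 36.7 CPM, with the others at 38.9 to 39.3 CPM. Phax had a highest library at 42.3 CPM, with the others at 40.3 to 40.4 CPM. Frmd4b had a lowest library at 39.9 CPM, with the others at 41.6 to 41.9 CPM. Ranbp1 had a lowest library at 334 CPM, with the others at 350.1 to 351 CPM.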

How the results depend on the processing

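Every host gene kept its direction under all alternatives that could test it. The log2 fold change of Gas5 was 1.86 with upper-quartile factors, 1.80 with library totals alone and 1.73 when genes had to reach 5 CPM in 4 or more libraries, against 1.64 with TMM, and 1.62 to 1.66 when each library was left out in turn. That filter removes Snhg3, so 0 of the hosts were then called lower, with 6 higher. Leaving out single libraries gave 6646 to 6712 genes higher and 6474 to 6568 lower, and hosts called 6 higher and 1 lower each time. Of called genes, 50.8% were higher with TMM, 61.0% with upper-quartile factors and 58.4% with library totals. Ribosomal protein genes were 61 higher and 12 lower with upper-quartile factors and 60 higher and 15 lower with library totals, against 47 and 22. The other pyrimidine-run genes were 4 and 5 lower under those scalings, against 9. The mTOR list was 10 and 8 higher and 6 lower under both, against 5 higher and 10 lower, and T cell identity genes were 1 lower under both, against 3. With the 5 CPM filter, 181 long non-coding genes were higher and 37 lower, against 788 and 177, since fewer genes were tested. With no filter 4 B cell markers were lower, against 1. The replicate numbers did not pair the libraries. Each gene's group mean was subtracted from its log2 CPM, and these deviations correlated at -0.085 to -0.051 between same-numbered libraries. With the number as a block Gas5 was 1.64 and 6611 genes were higher and 6420 lower. Without division by length, Snhg1 was second to Gas5 in both groups. Snhg3, with the fewest counts, had the widest range, -0.73 to -0.41. Technical replicates, an unstranded kit and overlapping annotation limit what these values can show.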
